A study of Mus musculus with 23 samples.

Results

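RNA from the orbitofrontal cortex of stressed mice was compared between animals given a ZBTB7A vector and animals given a GFP vector. The comparison used 13 of the 23 libraries of the study, 5 labelled ZBTB7A stress and 8 labelled GFP stress, chosen by the vector and stress condition in their labels. Both groups were wild-type male C57BL/6J mice, 8 weeks old. All were injected in the orbitofrontal cortex on day 0 with an AAV6 vector in which the promoter of the astrocyte gene GFAP drives the insert, ZBTB7A in one group and GFP in the other. Mice of both groups went through subthreshold social defeat, a brief exposure to an aggressor, on day 21. They were then tested for social interaction, sucrose preference and forced swimming from day 22 to day 27, and the infected tissue was dissected on day 28. The other 10 libraries, 5 per vector, were labelled as unstressed controls and enter here through the shared estimate of spread and the interaction test. Library numbers are those of the sample titles. The labels do not say that each library came from a separate mouse, so p-values measure only the spread between these samples, which may be technical.

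ZBTB7A, also called LRF or Pokemon, is a transcription factor with a BTB domain and C-terminal zinc fingers. It binds GC-rich DNA, recruits corepressor complexes such as NuRD and SIN3A, and is known from blood development, where it silences fetal globin genes, and from its cooperation with NF-kB. Astrocytes take up glutamate and buffer potassium around synapses, and in reactive states they raise GFAP and inflammatory genes. The orbitofrontal cortex, which serves the valuation of outcomes, lies close to the striatum, the septum, the olfactory tract and the lateral ventricle, whose cells have marker genes of their own.

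The measured values were normalized counts, that is, reads per gene divided by 1 size factor per library. Depth ran from 13.4 to 51.9 M recovered reads in GFP stress and from 13.3 to 44.9 M in ZBTB7A stress. Across genes, which are no replicates of each other, log2 values of the 13 libraries correlated between 0.961 and 0.991. The chi-square of counts between replicates was at least 3.21 per degree of freedom, so no replicate pair was as alike as 1 library deposited a second time. In tissue of mixed cells, fewer cells of a type and less RNA per cell cannot be told apart.

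Zbtb7a itself was not higher in the libraries labelled ZBTB7A. Its normalized counts there were 3899 in library 7, 3887 in library 9, 3721 in library 17, 3743 in library 25 and 3470.1 in library 26. In GFP stress they ran from 3681 over a median of 3842 to 4329.8. The groups overlapped, and the lowest of the 13 values was a library labelled ZBTB7A. The log2 fold change on the log2(value + 1) scale, used throughout, was -0.07 ± 0.08 (SE), with an adjusted p of 0.651 in limma and an exact two-sided permutation p of 0.165. The 95% interval of the fold was 0.854 to 1.06. The labels do not give the species or the form of the insert, and whether its reads are counted under the mouse gene was not tested. Directions below are therefore those of libraries labelled ZBTB7A against libraries labelled GFP.

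Gfap, the filament gene whose promoter drives the vector, stood at 11733, 14078, 19524, 7817 and 6598 in libraries 7, 9, 17, 25 and 26 labelled ZBTB7A. In GFP stress it ran from 2839.7 over a median of 5735 to 11345. The groups overlapped widely, with library 17 highest of the 13. The log2 fold change was 0.86 ± 0.41, with an adjusted p of 0.309 in limma and an exact permutation p of 0.0575. In the fit with the striatal level of each library as a covariate, described below, it was 0.42 ± 0.49.

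**Figure D1:**
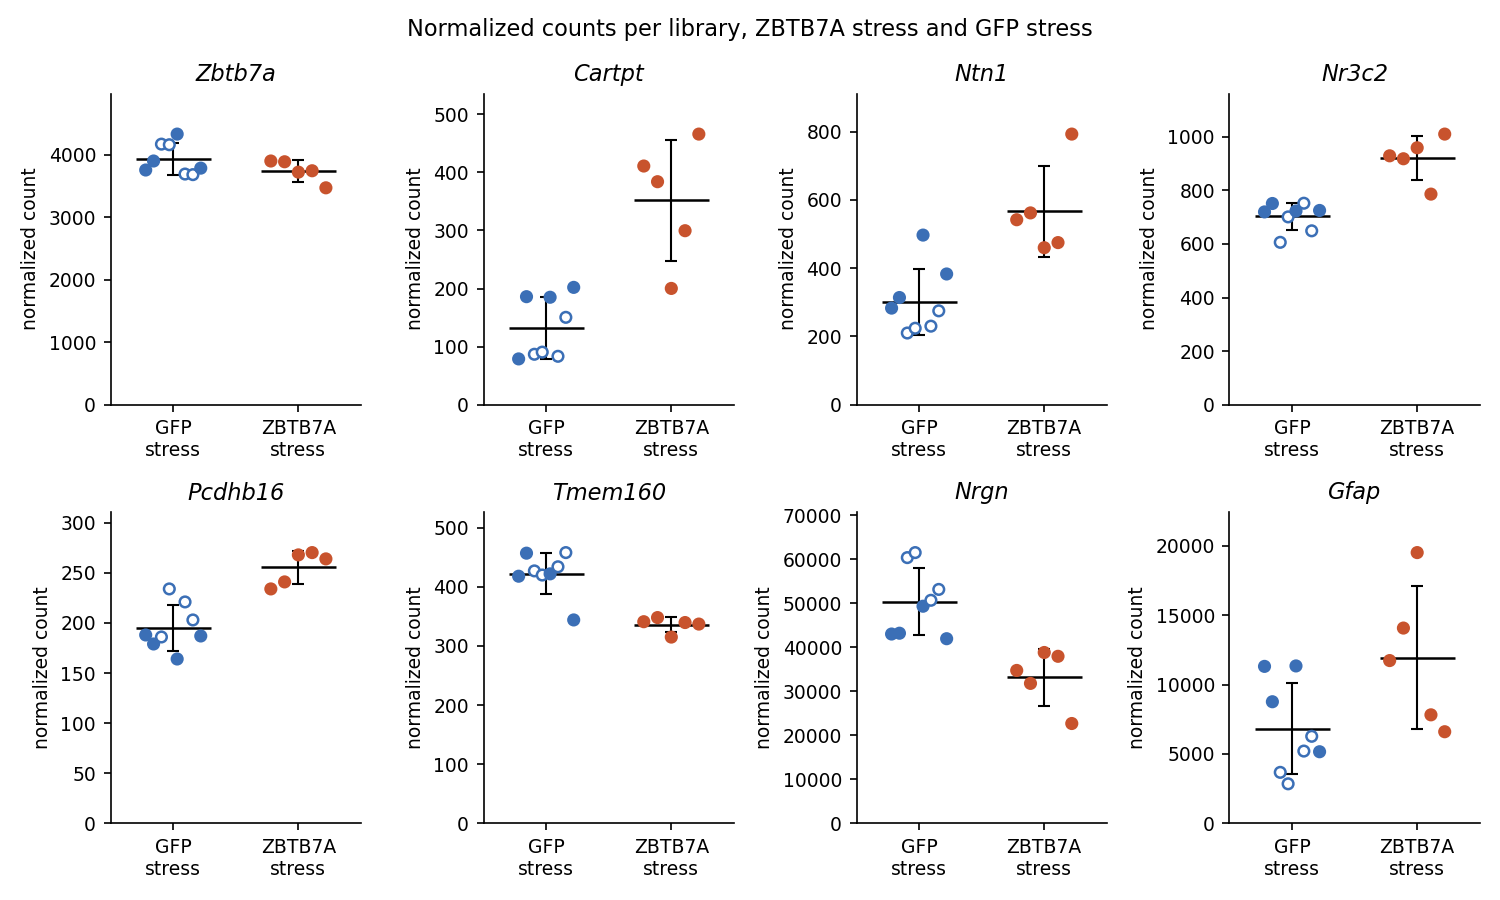
Normalized count (y axis, linear, from 0) of 8 genes in each library of GFP stress (blue, n = 8) and ZBTB7A stress (orange, n = 5). Points are libraries, the bar is the mean and the whisker 1 SD. Open points are GFP stress libraries 5, 12, 20 and 21, which were low in striatal genes. The groups are apart for Nr3c2 and Nrgn, touch at about 234 for Pcdhb16, overlap by 1 or 2 libraries for Cartpt, Ntn1 and Tmem160, and overlap widely for Zbtb7a and Gfap.

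Across the 16385 genes tested, none differed between the vectors at an adjusted p under 0.05 in limma (0% called), and the lowest adjusted p was 0.183. At an unadjusted p under 0.05, called nominal here, the mean was higher in 1496 genes (9.13% of those tested) and lower in 1139 genes (6.95%). Counts of nominal list members below are to be read beside these shares. In 75 genes (0.458%) every library labelled ZBTB7A lay above every GFP stress library, and in 89 genes (0.543%) below. On the recovered reads, edgeR's quasi-likelihood test called 0 genes and DESeq2 called 46 (0.281%), 33 higher and 13 lower, with 331 adjusted p left as NA. All 46 were nominal in limma in the same direction. Weights that let each library count by its scatter gave 2287 calls in limma, 1182 higher and 1105 lower, of which 1922 were nominal in the same direction without weights. The lowest weight of the 13 was 0.34, in GFP stress 13, and the other weights ran from 0.90 to 1.69. Without that library limma called 3 genes, Ntn1, Baz1a (a chromatin remodelling subunit) and Ptpn13, all higher. The 2635 nominal genes became 1458 without ZBTB7A stress 9.

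The 15 genes of smallest p with a higher mean in libraries labelled ZBTB7A had log2 fold changes from 0.20 to 1.45. Each had an adjusted p of 0.183 in limma, and DESeq2 called 14 of the 15. In 7 of them the groups did not overlap. Among unstressed libraries only 5 of the 15 had a log2 fold change of the same sign. All 15 had an unadjusted p under 0.05 in limma for the interaction, which uses the same stressed libraries and is no independent support. Cartpt, the precursor of the CART peptides of reward, feeding and stress circuits, led the order. Its normalized counts were 411, 384, 200.2, 299.6 and 466 in libraries 7, 9, 17, 25 and 26. GFP stress ran from 78.8 over a median of 120.5 to 202. Only library 17 reached down into the GFP range, where the highest GFP stress library was number 22. The log2 fold change was 1.45 ± 0.27 (fold 2.72, 95% interval 1.85 to 4.01). DESeq2 gave Cartpt an adjusted p of 9.3e-04. Its log2 fold change was 0.91 with the striatal covariate. The title numbers fall into 3 runs (1 to 9, 10 to 17 and 19 to 26), within which it was 1.86, 0.63 and 1.45.

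Cartpt also had the smallest p of all genes for a vector difference that depended on stress. Among unstressed libraries its log2 fold change was -0.93, so the difference of the differences was 2.38 ± 0.40, with an adjusted p of 0.0976 in limma for the interaction. Unstressed GFP libraries stood at 241, 207, 191, 211 and 310.4, above the GFP stress median. Unstressed libraries labelled ZBTB7A stood at 192, 69.2, 113, 138 and 115, all below every stressed library of that label. Cartpt belongs to the list of septal and subcortical neuron genes described below, whose median log2 fold change was 0.70 with stress and -0.55 without, and the part of that list in the interaction was not tested. Nts, of the same list, had an interaction of 4.10 ± 1.05 (adjusted p of 0.668 in limma). DESeq2 called the interaction of 3 genes, Cartpt, Ntn1 and Kl, the last a gene of choroid plexus. In limma the interaction of Cartpt passed without GFP stress 13, GFP stress 22 or ZBTB7A stress 17, with adjusted p of 0.0358, 0.0446 and 0.029. Leaving out any other single stressed library gave 0 interaction calls, as did TMM scaling and each covariate. The unstressed libraries were not left out. Over all genes the limma interaction called 0, edgeR called 0, and 1216 genes (7.42%) had an unadjusted p under 0.05.

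The 250 bases before the annotated start of Cartpt and of Tmem160, the leading gene in each direction, are shown because ZBTB7A is a DNA-binding factor. They come from RefSeq on GRCm38.p6 and read 5′ to 3′ on the strand of the gene, and capitals mark GACCC on either strand. The first is chr13:99900684-99900933 on the minus strand, the second chr7:16452529-16452778 on the plus strand.
Cartpt: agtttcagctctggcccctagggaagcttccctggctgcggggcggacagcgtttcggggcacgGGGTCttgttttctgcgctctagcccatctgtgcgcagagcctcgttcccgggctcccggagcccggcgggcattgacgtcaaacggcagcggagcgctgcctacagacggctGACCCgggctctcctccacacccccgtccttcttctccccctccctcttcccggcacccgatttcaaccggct
Tmem160: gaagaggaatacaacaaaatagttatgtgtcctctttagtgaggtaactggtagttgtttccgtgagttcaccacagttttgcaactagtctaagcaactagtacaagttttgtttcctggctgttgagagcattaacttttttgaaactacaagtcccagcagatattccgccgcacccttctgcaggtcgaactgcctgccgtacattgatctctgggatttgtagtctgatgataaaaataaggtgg
The Cartpt window held 2 matches and was 66.8% G and C, while the Tmem160 window held 0 matches at 42% G and C. Of the 12457 tested genes with a window in the table, 45.9% held GACCC on either strand. The share was 47% of the 1140 windows of nominally higher genes and 46.2% of the 881 windows of nominally lower genes. The longer motif GACCACC, which does not overlap GACCC, was in 2.62% of all windows, 2.72% of the nominally higher and 1.93% of the nominally lower. A match is a run of letters and no evidence of binding.

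Ntn1, the guidance cue netrin-1, had normalized counts of 542, 562, 460.0, 475 and 793 in libraries 7, 9, 17, 25 and 26. GFP stress ran from 210.0 over a median of 279 to 497. GFP stress 13 alone stood above the lowest libraries labelled ZBTB7A. The log2 fold change was 0.93 ± 0.18 (fold 1.91, 95% interval 1.47 to 2.47), against -0.46 without stress. The netrin receptor Dcc had a log2 fold change of 0.48 ± 0.12. With the striatal covariate Ntn1 was at 0.47, while Dcc was at 0.17 ± 0.10 and not nominal. Of the 46 tested axon guidance genes, which include ephrins, semaphorins, Slits and their receptors, 8 were nominally higher and 5 lower, and the median log2 fold change was -0.06. Ephrin ligands Efnb2 (0.22) and Efnb3 (0.64) were among the higher.

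Nr3c2 encodes the mineralocorticoid receptor, which binds corticosterone in brain. It stood at 929, 918, 959, 786 and 1010.1 in libraries 7, 9, 17, 25 and 26. The GFP stress libraries ran from 606 over a median of 721 to 752, and none reached the lowest library labelled ZBTB7A. Nr3c2 had a log2 fold change of 0.39 ± 0.08, and 0.24 with the striatal covariate. Its mean was 920.3 in ZBTB7A stress and 703 in GFP stress. Unstressed means were 894 in libraries labelled ZBTB7A and 874 in libraries labelled GFP, so GFP stress was the lowest group. Of 21 tested genes that glucocorticoids induce, 0 were nominally higher and 2 lower, with a median of 0.05. Over all genes 6.95% were nominally lower, so the 2 lower ones are near that share. The lower ones were Map3k6 (-0.41) and Zbtb16 (-0.52), the latter a BTB zinc-finger factor like ZBTB7A.

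Pcdhb16, a clustered protocadherin of neuronal adhesion, was 1 of 5 named genes whose difference was larger with the striatal covariate. Its counts were 234, 241, 268, 270.3 and 264 in libraries 7, 9, 17, 25 and 26. In GFP stress they ran from 164 over a median of 187 to 234, the highest being library 12, just below library 7. Pcdhb16 had a log2 fold change of 0.39 ± 0.08, then 0.52 with the striatal covariate and 0.51 without GFP stress 5, 12, 20 and 21. Within the 3 runs of numbers it was 0.36, 0.45 and 0.39. The genes of this cluster are similar in sequence, and how shared reads were assigned is not given in the sources used here.

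The other non-overlapping genes among the 15 were Foxn2 (a forkhead factor, 0.33), Lrp6 (a Wnt coreceptor, 0.20), Pdzd2 (a PDZ-domain protein, 0.53), Dhx40 (a helicase, 0.35) and Slc30a7 (a Golgi zinc transporter, 0.26). Slc30a7 stood at 632, 682, 648, 647 and 643 against 512 to 574 in GFP stress, the same log2 fold change with the striatal covariate (0.26). Pde4b, which degrades cAMP, was close behind in p and did not overlap either, at 3263, 3391, 3124, 3333 and 3429.9 against 2691 to 3035. Its log2 fold change of 0.21 was 0.20 with the covariate. The serotonin receptor gene Htr4 had a log2 fold change of 1.38 ± 0.31, from 43.6 to 140.2 in libraries labelled ZBTB7A and 14.6 to 49.4 in GFP stress, and 0.59 with the covariate. The phosphatase gene Ptpn13 (0.37), the nucleolar gene Rrp1b (0.45), Smpdl3b (1.13), Filip1 (1.02) and Fam102b (0.50) completed the 15. Strip2, a member of the striatal list, had a log2 fold change of 1.12.

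The 15 genes of smallest p with a lower mean differed by less, with log2 fold changes from -0.18 to -0.37, and 4 of them did not overlap between the groups. DESeq2 called 11. Tmem160, a mitochondrial membrane protein gene, stood at 341, 348, 315, 339.6 and 337 in libraries 7, 9, 17, 25 and 26. GFP stress ran from 344 over a median of 425 to 458. GFP stress 22 was the single GFP library within the range of the other label, and the next lowest was 418. Tmem160 had a log2 fold change of -0.33 ± 0.07, and -0.28 with the striatal covariate or without the 4 low libraries. Fam213b, a prostaglandin F synthase gene that RefSeq calls Prxl2b, was at 885 to 972 against 961 to 1244 (-0.23).

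Wwox, an oxidoreductase gene and tumour suppressor, stood at 620.5, 569, 617, 593 and 525 against 643 to 841 in GFP stress (-0.29 ± 0.07). Rab4b, a GTPase of endosome recycling, stood at 1153, 1081, 1186, 1214 and 1103 against 1249 to 1395 (-0.22 ± 0.05). Neither overlapped, nor did Gatd1 (-0.23) and Hcfc1r1 (-0.18). Coa3, an assembly factor of cytochrome oxidase, was the one of the 15 whose difference was larger with the striatal covariate, -0.21 against -0.19. Mpv17 (-0.23) and Nt5m (-0.22) also encode mitochondrial proteins, Tagln3 (-0.23) a neuronal cytoskeletal protein, Coprs (-0.33) a cofactor of arginine methylation and Ntmt1 (-0.24) an N-terminal methyltransferase. Ankrd9 (-0.37), Cuedc2 (-0.19) and B230217C12Rik (-0.30) completed the 15. B230217C12Rik stood at 848, 817, 945, 886 and 910.0 against 888 to 1268 in GFP stress, and was the one of the 15 lower genes that was not nominal with the striatal covariate (-0.11).

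Striatal genes separated the groups more than any other list in share of members. These are genes of medium spiny neurons, the projection neurons of the striatum. All 35 tested members had a higher mean in libraries labelled ZBTB7A, 32 nominally so, with a median log2 fold change of 1.57 against 0.01 over all genes. Averaging the centred log2 values of the members gave each library a level of the list, which was 1.19, 1.33, 0.08, 0.40 and 0.87 in libraries 7, 9, 17, 25 and 26. In GFP stress it was 0.21, -0.16, -1.56, -1.94, 0.55, -1.96, -1.63 and 0.28 in libraries 3, 4, 5, 12, 13, 20, 21 and 22. Libraries 5, 12, 20 and 21 lay apart below -1, libraries 3, 13 and 22 lay within the range of the other label, and library 4 lay just below it. Summed normalized counts of the list ran from 85324 to 197653 in libraries labelled ZBTB7A and from 31516 to 119400.2 in GFP stress.

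Single striatal genes had wide ranges within a group. Penk, the enkephalin precursor, stood at 14933, 17644, 5749.7, 8209 and 11726 in libraries 7, 9, 17, 25 and 26 and from 1115 to 7831 in GFP stress (1.87 ± 0.56). Pde10a, the striatal phosphodiesterase, ran from 7537 to 18158 against 1547 to 9926 (1.74 ± 0.51). Gnal (0.70), Scn4b (1.26), Gprin3 (1.27) and the retinoid receptors Rarb (1.57) and Rxrg (1.64) were nominal too. Without GFP stress 5, 12, 20 and 21, left out after their values had been seen, the list's median was 0.56 and 1 member was nominal. Among unstressed libraries the median was -0.25.

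**Figure D2:**
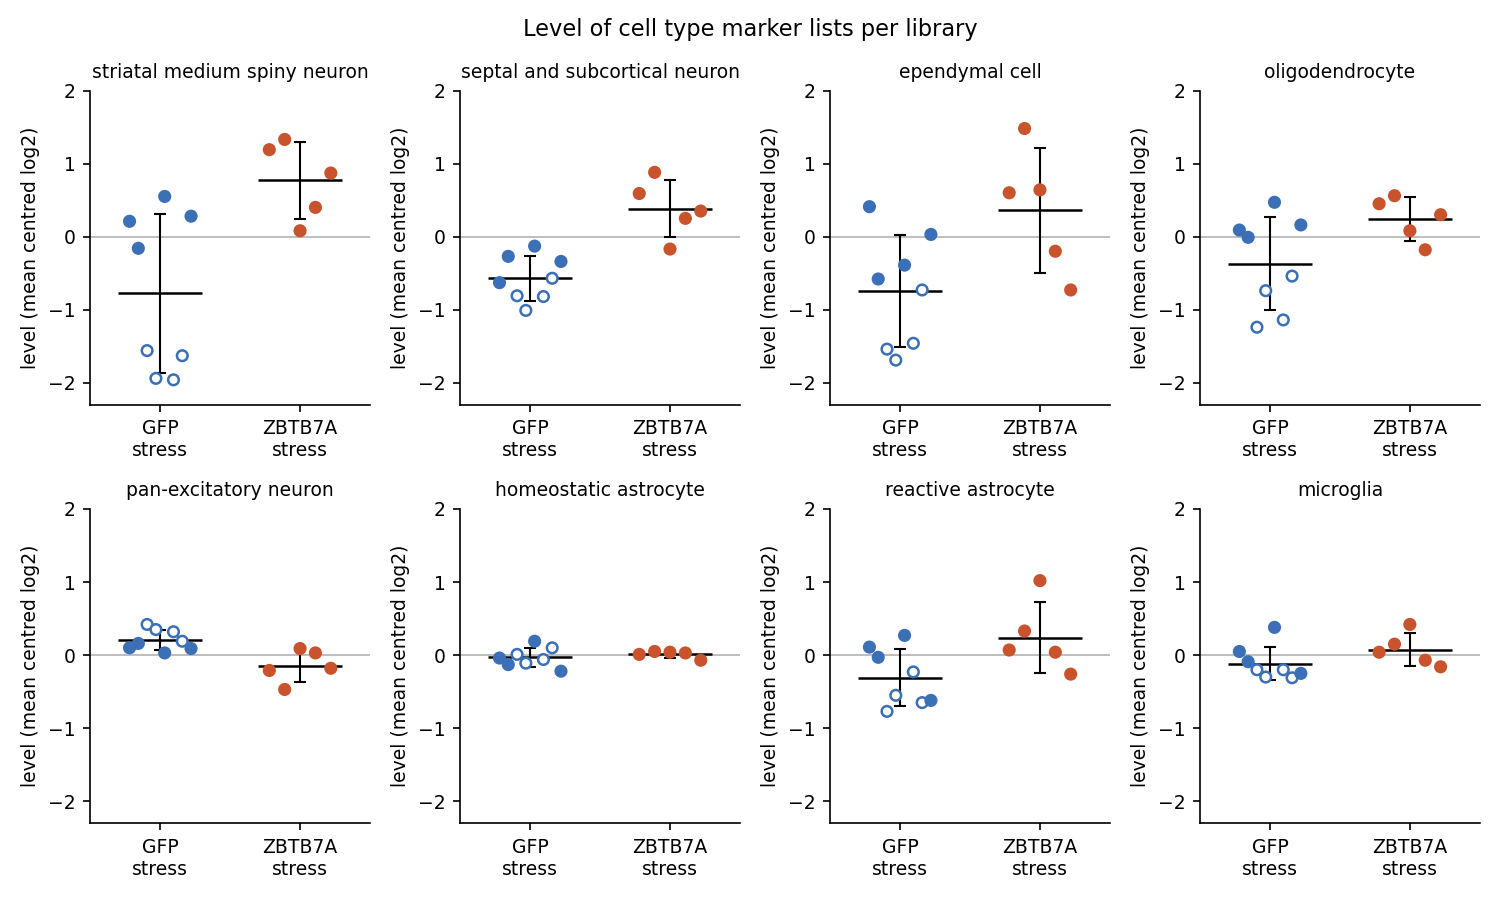
Level of 8 marker lists in each library (y axis, mean of centred log2 values over 23 libraries, same scale in every panel) for GFP stress (blue, n = 8) and ZBTB7A stress (orange, n = 5). Points are libraries, the bar is the mean, the whisker 1 SD and the grey line 0. The open points, GFP stress 5, 12, 20 and 21, lie below -1 for striatal genes and low for ependymal and oligodendrocyte genes, while homeostatic astrocyte genes keep a narrow range in both groups.

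Markers of septal and other subcortical neurons mostly had the same direction. Of 18 tested, Cartpt among them, 13 were above 0, 8 nominally higher and 0 lower, with a median of 0.70. Among unstressed libraries the median was -0.55. The level ran from -0.17 to 0.88 in libraries labelled ZBTB7A and from -1.01 to -0.13 in GFP stress. Slc5a7, the choline transporter of cholinergic neurons, stood at 375, 448, 118, 202 and 322 in libraries 7, 9, 17, 25 and 26 and from 14.3 over a median of 71.4 to 139 in GFP stress. Slc18a3, the vesicular acetylcholine transporter (2.13 ± 0.61), and Nts, the neurotensin precursor (2.60 ± 0.70), had the same order of groups. This list was one whose median did not shrink without the 4 low GFP libraries (0.86), with 1 member nominal. With the striatal covariate the list's median was 0.27, with 1 member, Cartpt, nominal. Slc5a7 (0.39), Slc18a3 (0.32) and Nts (0.76) were not nominal with the covariate. The part of tissue composition in the difference was not tested.

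Genes shared by excitatory cortical neurons mostly had lower means, while genes of single layers were divided. Of 20 pan-excitatory genes 17 had a lower mean, 8 nominally, with a median of -0.37. Nrgn, the postsynaptic calmodulin-binding protein neurogranin, stood at 34731, 31785, 38813, 37947 and 22663 in libraries 7, 9, 17, 25 and 26. GFP stress ran from 41949 over a median of 50009.5 to 61533, with no overlap. The log2 fold change was -0.61 ± 0.18, -0.44 without the 4 low GFP libraries and -0.38 with the striatal covariate. The homeobox gene Emx1 (-0.69), the peptide gene Cck (-0.71) and the channel subunit gene Kcnv1 (-0.41) were nominally lower. The list's median was -0.02 with the striatal covariate and -0.27 without the 4 low GFP libraries, and 0 members were nominal in either.

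By layer, 4 of 12 upper-layer genes were nominally lower and 0 higher, among them Lamp5 (-0.49) and Cux2 (-0.62). Of the 12, 6 were above 0 and 6 below, with a median of -0.01, and 0.05 with 0 nominal without the 4 low GFP libraries. Of 18 deep-layer genes 9 were above 0 and 9 below, 5 nominally higher and 0 lower, among them Foxp2 (0.85), Bcl11b (0.61) and Syt6 (0.67), the first 2 of which also mark medium spiny neurons. The deep-layer median of 0.11 was -0.10 without the 4 low GFP libraries and 0.01 with the striatal covariate, with 0 nominal in either. Of 22 inhibitory neuron genes 2 were nominally higher, Gad2 (0.70), the enzyme that makes GABA, and Nos1 (0.46). Nominally lower were 5, with the calcium buffer gene Pvalb (-0.78) not overlapping, at 523, 537, 799, 753 and 377 against 809.9 to 1526. The stress peptide gene Crh was at -0.63 ± 0.25. With the striatal covariate Gad2 was at 0.24 ± 0.18 and 0 of the 22 inhibitory genes were nominal. Without the 4 low GFP libraries 2 of them were nominally higher and 1 lower.

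Oligodendrocyte genes were above 0 in all 24 tested members, 5 nominally, with a median of 0.62. Mal (0.73), the iron carrier gene Trf (0.73) and Opalin (0.71) were among the 5. The level ran from -0.18 to 0.56 in libraries labelled ZBTB7A and from -1.24 to 0.47 in GFP stress. Its median was 0.05 without the 4 low GFP libraries. Of 14 precursor genes 3 were nominally higher, and Vcan, a matrix proteoglycan of these cells, did not overlap, at 694, 882, 730.0, 701 and 871 against 364 to 680.5.

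Homeostatic astrocyte genes, those of the cells the vector is meant for, differed little. Of 30 tested, 15 were above 0 and 15 below, with a median of 0.00. Nominally higher were 2, the bicarbonate transporter gene Slc4a4 (0.33) and Clu (0.31), a share of the list below the 9.13% of all genes, and 0 were lower. Of 38 tested reactive astrocyte genes 34 were above 0, with a median of 0.48, 10 nominally higher and 1 lower. Among the 10 were Gfap, the matrix gene Fbln5 (0.52), the glycosyltransferase gene B3gnt5 (0.79) and the oncostatin M receptor gene Osmr (0.59). The level of the list ran from -0.26 to 1.02 in libraries labelled ZBTB7A, highest in library 17, and from -0.77 to 0.27 in GFP stress. With the striatal covariate the median was 0.29 and 1 member was nominal, and without the 4 low GFP libraries 0.24 and 2.

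Of 18 genes of glutamate uptake and the glutamine cycle 1 was nominally higher, the vesicular transporter gene Slc17a8 (0.64), and 4 lower. Gls2, a glutaminase, was among the lower, at 477, 382, 533, 565 and 405 in libraries 7, 9, 17, 25 and 26. GFP stress ran from 555 over a median of 639 to 782, so library 25 reached the GFP range. Its log2 fold change was -0.45 ± 0.14, and -0.37 without the 4 low GFP libraries.

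None of 25 microglia genes was nominal in either direction, although 23 had a mean above the GFP libraries, with a median of 0.20. Of 24 genes of disease-associated microglia 3 were nominally higher, beside 9.13% of all genes. Among them were the lipase gene Lpl (0.78) and Ch25h (0.95), which makes 25-hydroxycholesterol. Ch25h had low counts of 15.5, 21.4, 25.7, 24 and 70.4 in libraries 7, 9, 17, 25 and 26. GFP stress ran from 6.17 to 31.8, and only library 26 lay above that range. Of 24 NF-kB subunit and target genes 1 was nominally higher and 1 lower. The NF-kB level was 0.49 in ZBTB7A stress 17, the highest of the 13 stressed libraries, as was its Gfap. Of 22 complement genes 1 was nominally higher, and of 29 interferon and antigen presentation genes 0 in either direction, shares at or below those of all genes.

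Vessel and ventricle genes are given by cell type. Of 15 mural cell genes all were above 0 and 5 nominally higher, led by the smooth muscle genes Acta2 (0.62) and Tagln (0.48). Acta2 stood at 444, 549, 499, 537 and 903 against 246 to 503 in GFP stress, with libraries 7 and 17 within the GFP range and library 26 far above the rest. The mural median was 0.23 with the striatal covariate and 0.29 without the 4 low GFP libraries, where 4 members were nominal. Of 24 endothelial genes 1 was nominally higher, and of 20 meningeal fibroblast genes 0.

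Of 14 ependymal genes all were above 0 and 7 nominally higher, with a median of 0.93. Tmem212, an ependymal marker, stood at 49.1, 105, 42.2, 11.6 and 10.4 against 0 to 40.3, so libraries 25 and 26 lay within the GFP range. Of 11 tested choroid plexus genes 4 were nominally higher, among them Clic6 (1.95) and the homeobox gene Otx2 (counts of 5.33 to 44.5 against 0 to 13.4), while Ttr, the defining marker, had a median under 10 over the 13 libraries. With the striatal covariate the ependymal median was 0.18 with 0 members nominal, and without the 4 low GFP libraries 0.35 with 1. The choroid plexus median of 0.70 was 0.54 and 0.61 in these fits, with 0 members nominal in either. Without stress the choroid plexus median was -1.43 and the ependymal median -0.62. Blood genes were below 0 in all 4 tested members with 0 nominal. GFP stress 12 and 13 stood far apart in the level of blood genes, at 3.14 and 3.97, while the other 6 GFP stress libraries ran from -1.39 to 0.32 and those labelled ZBTB7A from -1.56 to 0.10. Among infiltrating leukocyte genes 11 of 24 had a median under 10, the T-cell gene Cd3e included. Of the 14 tested 2 were nominally higher and 0 lower, with a median log2 fold change of 0.08.

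**Figure D3:**
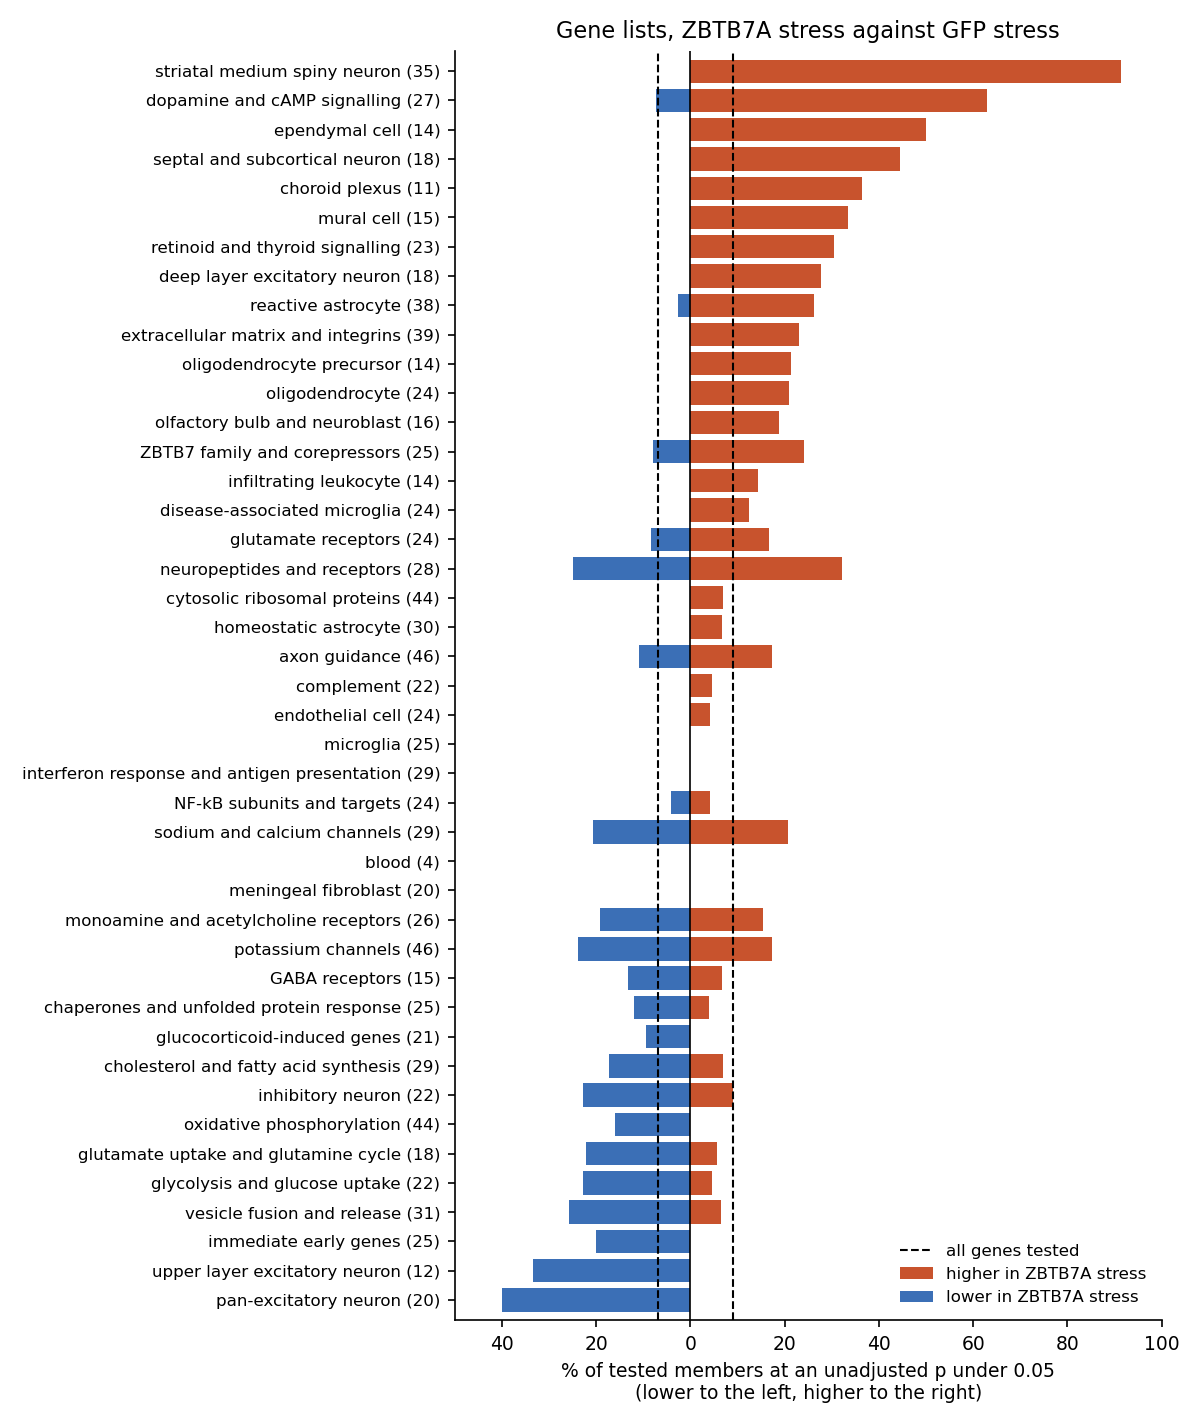
Percent of the tested members of each of 43 gene lists (member number in brackets) at an unadjusted p under 0.05 in limma, higher in ZBTB7A stress to the right (orange) and lower to the left (blue). Dashed lines mark the same share over all 16385 genes, 9.13% higher and 6.95% lower. Striatal, dopamine and cAMP, ependymal and septal lists reach farthest to the right, and pan-excitatory and upper-layer lists farthest to the left.

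Among signalling genes, those of dopamine receptors and cAMP followed the striatal list, with which they share members. Of 27 tested 17 were nominally higher and 2 lower, with a median of 0.46. Gng7, a G-protein subunit gene of striatal neurons, ran from 6983 to 15978 against 2197 to 8975 (1.42 ± 0.39). The list's median was 0.01 with the striatal covariate, and Pde4b was the member that did not overlap. Of 23 retinoid and thyroid genes 7 were nominally higher and 0 lower, including Stra6 (0.73), a retinol receptor, beside the striatal genes Rarb and Rxrg. Of the 23, 12 were above 0 and 11 below, with a median of 0.04. With the striatal covariate, as without the 4 low GFP libraries, 0 members were nominal.

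Monoamine and acetylcholine receptor genes were divided, with 4 nominally higher and 5 lower of 26. Besides Htr4, the serotonin receptors Htr2c (0.63) and Htr1d (1.24) were higher. The adrenergic receptor Adra1d was lower, at 453, 415, 835, 715 and 409 in libraries 7, 9, 17, 25 and 26 against 696 to 1475 (-0.95 ± 0.29). Libraries 17 and 25 lay within the GFP range. Neuropeptide genes were divided as well, 9 nominally higher and 7 lower of 28, with Cartpt, Nts, Penk and the substance P receptor gene Tacr1 (1.36) among the higher and Cck and Crh among the lower.

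Of 46 potassium channel genes 8 were nominally higher and 11 lower, more than the background in both directions. Kcna5 (1.08), Kcna4 (0.60) and the calcium-gated Kcnn3 (0.55) were higher. The leak channel gene Kcnk4 was lower, at 129, 101, 230.5, 188 and 148 against 209 to 327 (-0.74 ± 0.21), with library 17 alone in the GFP range. Of 29 sodium and calcium channel genes 6 were nominally higher, with Scn3a (0.31) and Scn4b, and 6 lower, with Cacng2 (-0.27), a trafficking subunit of AMPA receptors. In both channel lists 0 members were nominal with the striatal covariate.

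Glutamate receptor genes had 4 nominally higher of 24, Grik2 (0.34), Grm5 (0.30) and Gria1 (0.16) among them, and 2 lower. Over all genes 9.13% were nominally higher and 6.95% lower. The presynaptic receptor gene Grm2 was lower, at 865, 761, 1434, 1601 and 966 in libraries 7, 9, 17, 25 and 26 against 1134 to 2893 (-0.85 ± 0.29). Libraries 17 and 25 lay within the GFP range. Of 15 GABA receptor genes 1 was nominally higher, Gabrg3 (0.37), and 2 lower. Of 31 genes of vesicle fusion and release 8 were nominally lower, with Vamp1 (-0.50), Stx1a (-0.55) and Rab3a (-0.25), and 2 higher, with Doc2b (1.14). The vesicle list's median of -0.21 was 0.02 with the striatal covariate and -0.14 without the 4 low GFP libraries, with 0 members nominal in either.

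Activity genes had lower means. Of 25 immediate early genes, which neurons switch on after firing, 23 were below 0 and 5 nominally, with a median of -0.21. Bdnf (-0.59), Dusp6 (-0.49), Ier5 (-0.41) and Nptx2 (-0.32) were among the 5. Bdnf stood at 348, 282, 469, 575 and 358 against 439.6 to 802. Libraries 17 and 25 lay within the GFP range, and the other 3 below it. The list's median was -0.08 with the striatal covariate, 0 members being nominal, and -0.05 without the 4 low GFP libraries.

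Energy metabolism genes had mostly lower means, by small amounts. Of 44 subunits of oxidative phosphorylation 39 were below 0, 7 nominally lower and 0 higher, with a median of -0.09. Cox8a (-0.20), Ndufa10 (-0.16) and Cyc1 (-0.13) were among the 7. With the striatal covariate the median was -0.08, with 4 members nominally lower. Of 22 genes of glycolysis and glucose uptake 19 were below 0, 5 nominally lower, with Pfkm (-0.18), and 1 higher, the lactate transporter gene Slc16a1 (0.30). Of 29 genes of cholesterol and fatty acid synthesis 5 were nominally lower, with Mvd (-0.34) and Pmvk (-0.19), and 2 higher. Of 25 chaperone and stress response genes 3 were nominally lower, with Atf4 (-0.18), and 1 higher, beside 6.95% and 9.13% of all genes. Of 44 cytosolic ribosomal protein genes 3 were nominally higher, with Rpl7 (0.16), a share below that of all genes.

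Of 39 genes of the extracellular matrix and its integrin receptors 27 were above 0 and 12 below, 9 nominally higher and 0 lower, with a median of 0.22. Lamb1, a laminin chain, stood at 784, 806, 593, 642 and 720.3 against 377 to 601 (0.57 ± 0.14), and only library 17 reached the GFP range. Itga5, the fibronectin receptor subunit, stood at 310.2, 333, 199, 201 and 218 against 70.2 to 239 (1.11 ± 0.30), and libraries 17, 25 and 26 lay within the GFP range. Lamc1 (0.26) was at 1157 to 1253 against a GFP median of 972, with GFP stress 13 at 1371. With the striatal covariate the list's median was 0.14 with 2 members nominal, and without the 4 low GFP libraries 0.18 with 5.

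The ZBTB family and the corepressors that ZBTB7A is known to recruit had 6 nominally higher and 2 lower of 25, with a median of 0.02. Sin3a, the scaffold of the SIN3 deacetylase complex, did not overlap, at 1169, 1198, 1101, 1128 and 1139.8 against 943 to 1080.2 (0.18 ± 0.05). Chd4, the remodelling enzyme of NuRD, had a log2 fold change of 0.16 ± 0.06. The relatives Zbtb7c (0.46) and Zbtb20 (0.88) were nominally higher and Zbtb16 lower. None was nominal with the striatal covariate.

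Adding the striatal level of each library to the fit moved 117 of the 122 genes named here toward 0. By construction it brings genes that follow the striatal list near 0, so the adjusted values describe what varies apart from that list. Of the 2635 nominal genes 248 were nominal in the same direction with the covariate and 289 had the opposite sign, among 615 nominal genes in all. Without GFP stress 5, 12, 20 and 21 there were 592 nominal genes, of which 438 were among the 2635 in the same direction, and 2 of the 2635 had the opposite sign. Higher genes made up 56.8% of the nominal genes in the main analysis, 63.1% with the covariate and 70.9% without the 4 libraries. Both fits called 0 genes in limma. Of the 15 leading genes in each direction 14 higher and 14 lower ones were nominal with the covariate. Without the 4 libraries all 15 of each were nominal. These genes were chosen for the smallest p in the same libraries, so staying nominal is no independent support. The median ratio of the log2 fold change with the covariate to that without was 0.53 for the higher and 0.63 for the lower genes.

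**Figure D4:**
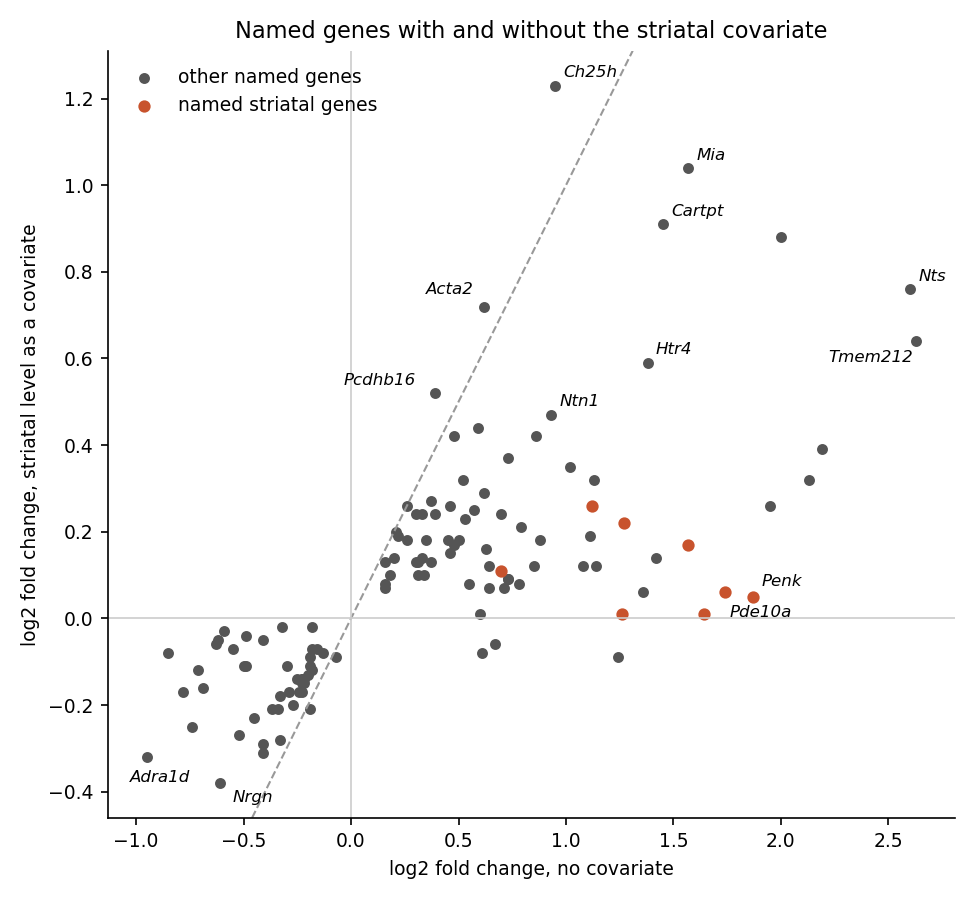
Log2 fold change of the 122 named genes without a covariate (x axis) and with the striatal level of each library as a covariate (y axis). Orange points are striatal list genes and the dashed line marks equal values. Striatal genes such as Penk and Pde10a lie near 0 on the y axis (0.05 and 0.06), Pcdhb16 and Acta2 lie above the dashed line (0.52 and 0.72), and Cartpt keeps 0.91.

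Nominal direction followed transcript length. By the longest transcript in GENCODE M21, which gave a length for 94.9% of tested genes, nominally higher genes had a median of 4191 bases, nominally lower genes 2926 and all genes 3372. From the shortest to the longest decile of genes the nominally higher share went from 3.92% to 16.3%, and the lower share from 8.75% to 3.86%. The leading higher genes, such as Pdzd2 (10756 bases) and Lrp6 (9368 bases), were long, with a median of 5225, and the lower ones, such as Tmem160 (815 bases) and Coa3 (886 bases), short, with a median of 1724. By GC content the nominally higher share was 9.9% in the lowest decile and 4.63% in the highest, and the lower share 3.28% and 9.97%. The mean level of short minus long transcripts in a library overlapped between groups, at -0.09 to 0.08 in libraries labelled ZBTB7A and -0.04 to 0.10 in GFP stress. The part of length, GC content or RNA quality in the differences was not tested.

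**Figure D5:**
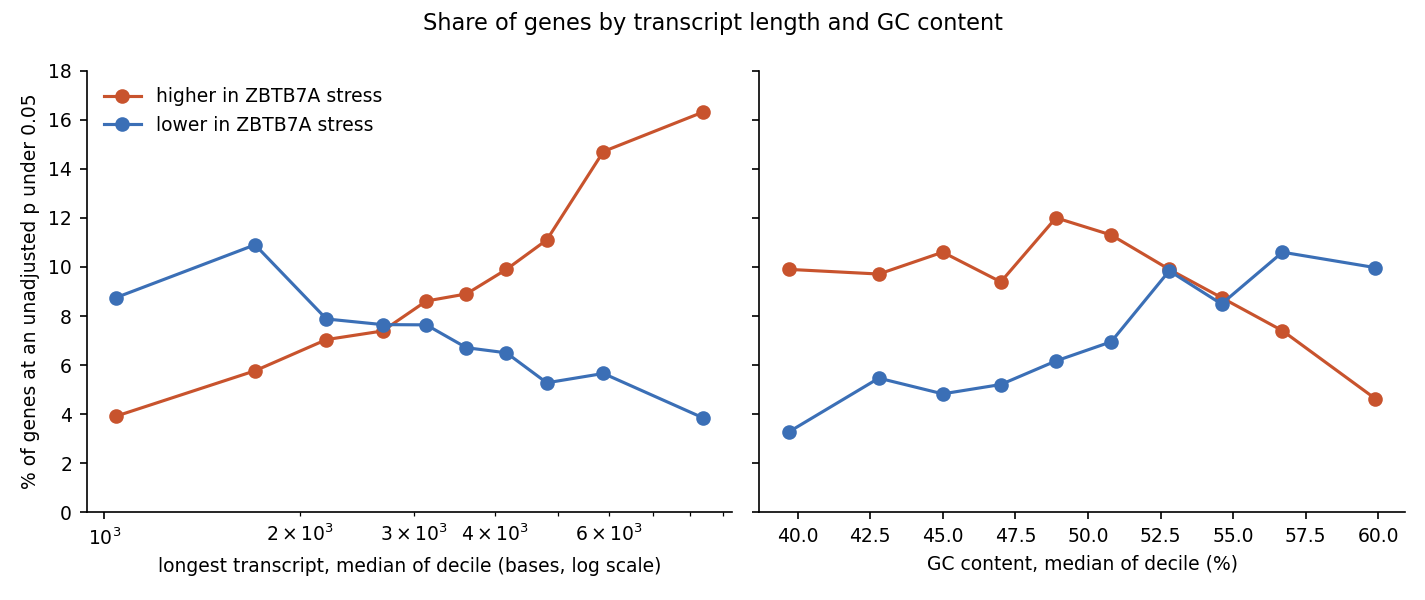
Percent of genes at an unadjusted p under 0.05 (y axis) by deciles of genes ordered by the length of the longest transcript (left, log axis, bases) or its GC content (right, %), for genes higher (orange) and lower (blue) in ZBTB7A stress. Each point is 1 decile of the genes with a transcript length. The higher share climbs from 3.92% to 16.3% with length while the lower share goes from 8.75% to 3.86%.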

How the data were processed

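Polyadenylated RNA was sequenced (TruSeq RNA v2, per the labels) from 23 libraries. The authors deposited 1 table of normalized counts, used here as a signal. Tools listed in the submitters' processing notes are DESeq2 2.11.40.6, featureCounts 2.0.1 and HISAT2 2.1.0, with the builds mm10 and mm9 and no roles, so no coordinates of the table are given. The kit does not mark strand, so a gene and an antisense partner cannot be told apart. In every library 100.0% of the deposited values were whole multiples of 1 step within 0.02 reads, and whole reads were recovered.

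Of 27606 rows 428 repeats by Entrez identifier were removed. Genes with a value of 10 or more in at least 5 of 23 libraries were tested on log2(value + 1) with limma 3.58.1 (R 4.3.3, trended, robust, 4 group means), two-sided, Benjamini-Hochberg adjusted, called under 0.05. Errors on log2 fold changes are SE. Only the limma fit of the stress contrast was tested on simulated counts, with randomly chosen genes changed by known folds. Of 1014 symbols in 43 lists 1013 matched. Members and lists were chosen with earlier results of these data known. Named genes are Zbtb7a, Gfap, the 15 of smallest p in each direction with a mean of 50 or more, and up to 4 of smallest p per list, of which some are not reported here. Baz1a, Kl, Basp1 and Fxyd7, called only in an alternative, and Ttr and Cd3e were named after their values were seen. Alternatives were a pseudocount of 5, other filters, TMM, recovered reads tested with DESeq2 1.42.0 or edgeR 4.0.16, array weights and the 2 groups alone. Others were covariates for striatal level, reads and number run (titles 1 to 9, 10 to 17 and 19 to 26), and an adjusted p under 0.1. Each of the 13 stressed libraries, but no unstressed one, was left out in turn. Leaving out 4 libraries together was added after seeing the data. Tables and figures used Python 3.11.15, pandas 2.3.3, scipy 1.17.1 and matplotlib 3.10.9.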

Additional observations from a re-analysis of the deposited data

Results flagged for a closer look

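Within a group, 1 library stood apart from the others by Dixon's ratio in 13 of 330 groups of values examined. Chance flags about 1 in 20 groups, which is 16.5 here. GFP stress 13 was the library in 6 of the 13. It was low for Tagln3 (5911), Cuedc2 (2216) and Ndufa10 (2327), high for Lamc1 (1371), and high in the level of extracellular matrix genes (0.42) and of retinoid and thyroid genes (0.21). GFP stress 12 was high for Gls2 (782) and in the levels of potassium channel genes (0.16) and sodium and calcium channel genes (0.10). GFP stress 22 was low for Tmem160 (344). ZBTB7A stress 26 was high for Lrp6 (1478), ZBTB7A stress 7 low in the level of GABA receptor genes (-0.09) and ZBTB7A stress 17 high in the level of NF-kB genes (0.49).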

How the results depend on the processing

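For the vector difference under stress limma called 0 genes. DESeq2 on recovered reads called 46, array weights 2287 and the fit of the 2 groups alone 2 (Basp1 and Fxyd7, both lower). Leaving out 1 stressed library at a time gave 0 to 3. For the interaction limma called 0, DESeq2 3 and array weights 2068, and an adjusted p under 0.1 gave 1 (Cartpt). Leaving out 1 stressed library at a time gave 0 to 2 interaction calls. The unstressed libraries, on which the interaction also rests, were not left out. The count was 0 under the other alternatives run. The cause of these differences was not tested.

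Of 3533 values of the 122 named genes under alternatives, 3526 kept their direction and 7 did not. Most of these genes were chosen for a small p in the same libraries, and 121 were nominal. Their kept directions are therefore no independent support. With the striatal covariate the log2 fold change of Bcl11b was -0.08, of Syt6 -0.06 and of Htr1d -0.09. Within number run 2, which holds 1 library labelled ZBTB7A, the log2 fold change of Lamp5 was 0.01, of Crh 0.06, of Tagln -0.01 and the log2 fold change of Nptx2 was 4.7e-03. Of 1204 list medians 55 moved by more than 1 SD. Scaling by TMM shifted the median of all genes by 0.00. No paired analysis was possible because no library number is shared between the groups. At 5 against 8 libraries and this depth, the main fit called 0 genes, also among those whose groups did not overlap. A difference that was not called may still be present.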
